A study of Mus musculus with 2 samples.

Results

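Mouse miRNA genes whose symbols carry a 4-digit number, most of them added to the catalogue after the classical miRNAs were known, were examined in embryonic limb. Of 577 such genes in the deposited tables, 5 were set aside: 4 in a window of the imprinted Dlk1-Dio3 domain on chromosome 12, and Mir3074-1. Sfmbt2, whose gene body was also set aside, held 0 rows with such a symbol. Of the remaining 572 genes, 64 (11.2%) had at least 10 sense counts in both libraries and are called detected, against 17.6% of all 1973 gene rows. The 64 members were chosen by their sense counts, so their detection and levels are descriptions without a test. Among the 1401 rows that are no candidates, 284 (20.3%) were detected.

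The samples were limb tissue taken from B6NCrl mouse embryos of both sexes at embryonic day 10.5. They form 1 group of 2 biological replicates, each a pool: 69 embryos in replicate 1 and 51 in replicate 2. No treatment or mutant allele is given in the labels, and no contrast between conditions exists. Each library came from many embryos, so levels are averages over the cells of the tissue, and fewer cells of a type cannot be told apart from less RNA per cell.

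Sense counts in genes were 3581672 in replicate 1 and 3576482 in replicate 2, and CPM are counts per 1000000 of them. With 0 reads a gene could still stand at 0.838 and 0.839 CPM (the equivalent of 3 counts), and 10 counts equal 2.79 and 2.80 CPM. Unmapped reads made up 32.3% of replicate 1 and 18.6% of replicate 2. All 11 miRNA genes listed as limb and mesenchyme markers were detected and held 20.7% and 19.8% of the sense counts. Of 18 measured genes marking epithelium, blood, muscle, neurons or liver, 12 were detected, at 1.29% and 1.12% of the counts, while the neuronal Mir124a-1, Mir124a-2 and Mir124a-3 were at 0. Every listed epithelial and erythroid gene was detected, with means up to 4810 CPM (Mir205) and 326 CPM (Mir451a). The muscle gene Mir206 and the liver gene Mir122 were detected at means of 62.3 and 15.2 CPM. Vascular genes were not listed, and Mir126a stood at a mean of 25195 CPM. Errors are SD over the 2 libraries, and intervals are 95% exact binomial. Intervals and floors cover counting error only, because PCR reads without molecular identifiers are not independent molecules.

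A miRNA is cut from a hairpin in a longer transcript, usually by the nuclease Drosha with DGCR8 and then by Dicer, and guides Argonaute to mRNAs through its seed, bases 2 to 8. Many hairpins lie in introns and are made along with the host mRNA. In the mirtron route the spliced intron itself supplies the hairpin, so that splice sites take the place of the Drosha cuts. Symbol numbers follow the order of registration, and late entries come largely from deep sequencing, where fragments of other small RNAs can be registered as miRNAs.

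The mature sequences of the abundant members, and of members that differed most between the libraries, are printed first because the results return to them. Sequences are from RefSeq (GRCm38.p6), 5′ to 3′, with the seed in capitals. Of the 64 members, 61 were found in that table, 60 of them with a mature sequence. Mir1948, Mir6539 and Mir7666 are named only, and Mir5099 had a hairpin alone.
mmu-miR-1983: cUCACCUGgagcauguuuucu
mmu-miR-6236: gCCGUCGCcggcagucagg
mmu-miR-1306-5p: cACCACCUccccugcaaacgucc
mmu-miR-1306-3p: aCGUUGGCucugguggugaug
mmu-miR-3071-5p: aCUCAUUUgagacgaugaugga
mmu-miR-3071-3p: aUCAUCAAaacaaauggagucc
mmu-miR-1247-5p: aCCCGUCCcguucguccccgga
mmu-miR-1247-3p: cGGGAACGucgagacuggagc
mmu-miR-6538: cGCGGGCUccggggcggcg
mmu-miR-5126: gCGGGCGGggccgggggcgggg
mmu-miR-2137: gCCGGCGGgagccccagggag
mmu-miR-3099-3p: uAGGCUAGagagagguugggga
The 101 mature sequences read for the 60 members carried 101 different seeds, so no seed was shared between members. The sequences of miR-6538, miR-5126 and miR-2137 are built almost wholly of G and C, with 94.7%, 100% and 85.7% GC.

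Hairpins are shown for 2 further reasons: a tRNA gene inside one of them, and splice-site letters at the ends of others. In the Mir1983 hairpin the capitals mark the bases of the tRNA gene n-TItat14. In the hairpins of Mir1981, Mir6944 and Mir6958, which fill whole introns, and in that of Mir5126, the member of highest GC, the capitals mark the mature sequences. Mir5099, the member of lowest GC, has no mature entry and is in lower case.
Mir1983 hairpin: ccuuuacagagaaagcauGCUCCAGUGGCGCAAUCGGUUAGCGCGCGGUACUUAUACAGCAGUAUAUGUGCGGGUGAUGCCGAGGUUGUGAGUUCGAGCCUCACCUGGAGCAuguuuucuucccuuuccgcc
Mir1981 hairpin: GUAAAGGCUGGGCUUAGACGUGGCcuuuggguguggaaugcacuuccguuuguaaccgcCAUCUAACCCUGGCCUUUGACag
Mir6944 hairpin: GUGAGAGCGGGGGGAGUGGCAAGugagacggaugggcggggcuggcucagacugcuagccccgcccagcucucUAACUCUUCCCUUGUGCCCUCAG
Mir6958 hairpin: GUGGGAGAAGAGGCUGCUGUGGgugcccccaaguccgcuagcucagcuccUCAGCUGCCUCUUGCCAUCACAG
Mir5126 hairpin: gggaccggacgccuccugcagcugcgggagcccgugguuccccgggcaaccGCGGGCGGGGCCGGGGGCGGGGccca
Mir5099 hairpin: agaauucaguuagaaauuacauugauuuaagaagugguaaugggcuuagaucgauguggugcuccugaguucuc

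The 64 members made up a small share of the limb miRNA counts, and a single gene took most of it. They held 37033 counts in replicate 1 and 20802 in replicate 2, which is 1.03% (1.02 to 1.04) and 0.582% (0.574 to 0.590) of the sense counts. The share was higher in replicate 1, and the mean was 0.808% ± 0.320 (SD, n = 2). Mir1983 alone took 69.8% and 69.5% of the members' counts. Without it the other 63 members held 0.312% and 0.178% of the sense counts. The first 5 members together took 84.5% ± 0.815 of the members' counts, and the other 59 summed to 1236 ± 429 CPM.

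The median member stood at 11.6 CPM, with the middle range of members from 6.81 to 29.2 CPM, whereas the other 284 detected genes had a median of 243 CPM. Of the 64 members, 7 exceeded 100 CPM, 31 lay between 10 and 100 CPM and 26 were under 10 CPM. Mir1983, at rank 31 of the 348 detected genes, was the 1 member among the 100 most abundant. The next in rank were Mir6236 at 129, Mir1306 at 137 and Mir5099 at 141, and 58 members lay below the median of the detected genes. The plot of member levels shows this steep drop after Mir1983 and a long tail.

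**Figure D1:**
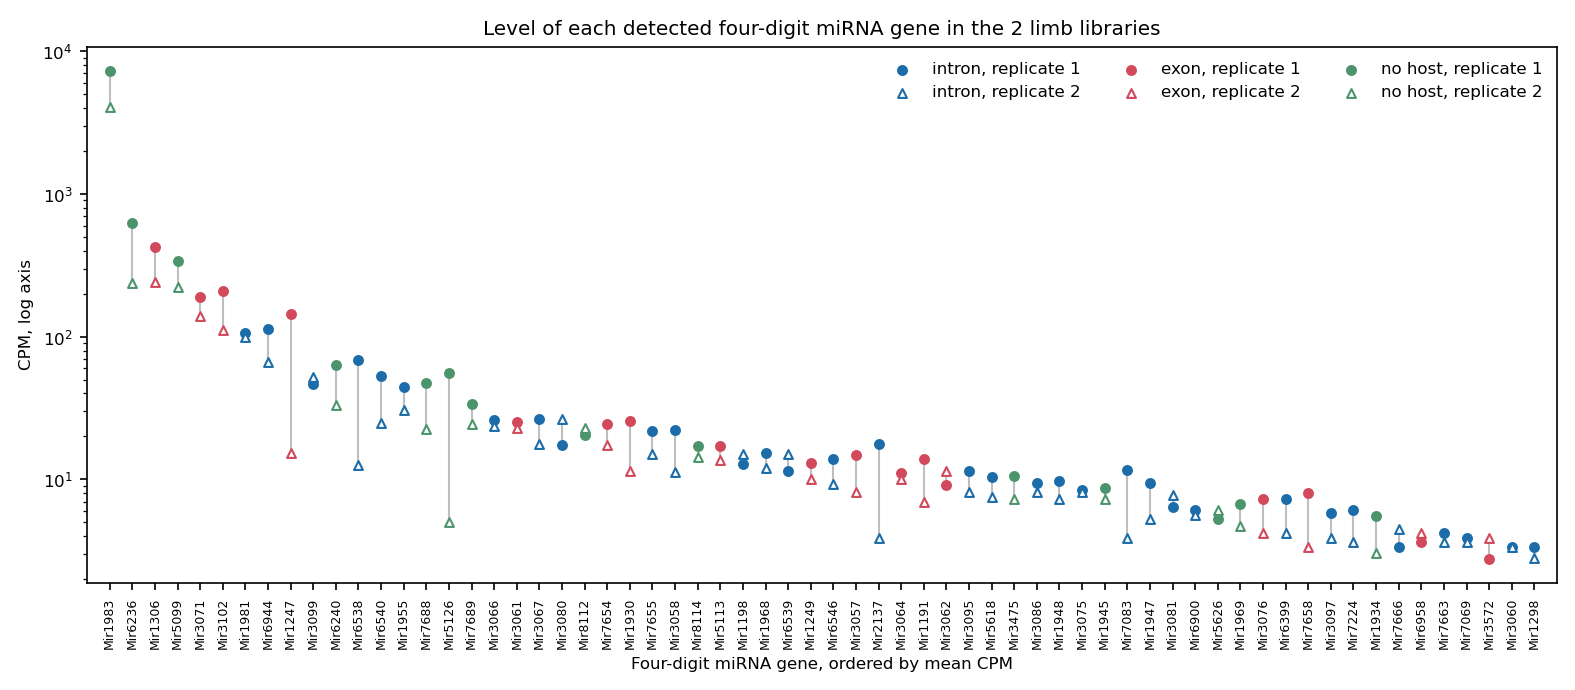
Level of each of the 64 detected four-digit miRNA genes in CPM (log axis), ordered by mean; filled circles are replicate 1, open triangles are replicate 2 and colours give the place of the hairpin relative to a host gene. Mir1983 stands above the rest, and Mir1247, Mir6538 and Mir5126 show the widest gaps between the libraries among members of at least 100 counts on average.

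Mir1983, on the minus strand of chromosome 13 (21896918 to 21897049, GRCm38), lay outside any same-strand host gene. It had 25858 counts (7220 CPM) in replicate 1 and 14450 counts (4040 CPM) in replicate 2. Its level was higher in replicate 1, and the mean was 5630 ± 2248 CPM (SD, n = 2). In both libraries it ranked first among the members. The hairpin of 132 bases contains the whole of the RefSeq tRNA gene n-TItat14 (chromosome 13, 21896938 to 21897031, 94 bases), a carrier of isoleucine to the ribosome. Of the 21 bases of miR-1983, 13 lie at the 3′ end of that tRNA gene and 8 lie beyond it, as the printed hairpin shows. Among the 1894 gene rows with coordinates, Mir1983 was the 1 that overlapped a RefSeq tRNA gene. The tables count reads per hairpin, so reads of the mature miRNA and reads of other tRNA pieces within it cannot be told apart.

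Mir6236 (chromosome 9, 110281287 to 110281409, plus strand), also without a host, had 2248 counts (628 CPM) in replicate 1 and 855 counts (239 CPM) in replicate 2, a mean of 433 ± 275 CPM. Mir5099 (chromosome 12, 36816205 to 36816278, plus strand) had 1205 counts (336 CPM) and 802 counts (224 CPM), a mean of 280 ± 79.3 CPM. Mir6240 (chromosome 5, 114851948 to 114852064, plus strand) was at 63.4 and 33.3 CPM, a mean of 48.3 ± 21.3 CPM. All 3 were higher in replicate 1, and Mir6240 was below the other 2 in both libraries. Mir6236 was above Mir5099 in both libraries, widely in replicate 1 and narrowly in replicate 2. Levels are reads per gene and were not divided by length. Per 100 hairpin bases, Mir1983 stayed first at 4265 CPM, followed by Mir1306 at 421, Mir5099 at 379 and Mir6236 at 352. Whether each sequence was captured equally was not measured.

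Of the 64 members, 33 (51.6%) lay in introns of a same-strand host, 17 (26.6%) overlapped an annotated exon of one, and 14 (21.9%) had no same-strand host. The 50 hosted members had 50 different hosts, 49 of them protein-coding. Members without a host held most of the reads because of Mir1983, summing to 6556 ± 2689 CPM, against 889 ± 360 CPM in exons and 633 ± 149 CPM in introns. By median they stood at 25.3 CPM, exonic members at 11.6 CPM and intronic members at 9.78 CPM. The difference of intronic from exonic members was −0.37 on the log2 scale, against 0.07 among the other detected genes, whose medians were 222 CPM in introns, 215 in exons and 326 without a host. Members within each place ranged far beyond these gaps, from 3.07 to 103 CPM in introns and from 3.35 to 333 CPM in exons. Detection differed little with place: 33 of 294 intronic candidates (11.2%), 17 of 137 exonic candidates (12.4%) and 14 of 141 without a host (9.93%) passed. Among rows that are no candidates the shares were 26.9%, 38.3% and 14.3%.

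Some exonic members overlapped reading frames, in part or in whole. Of the 17, 9 overlapped the coding sequence of a protein-coding transcript by at least 1 base. How many of their bases were coding was not counted, and in Mir3076 exons of any kind covered 1 base. Another 3 (Mir3061 in Ppp2ca, Mir5113 in Tnrc6b and Mir1191 in BC024978) overlapped an untranslated region, and 5 (Mir1247, Mir1249, Mir1930, Mir3102 and Mir6958) overlapped only exons of transcripts with no protein product. Mir1306 led the exonic members. It overlaps coding sequence of Dgcr8 (chromosome 16, 18284239 to 18284317, minus strand), which encodes the RNA-binding partner of Drosha. It had 1524 counts (426 CPM) in replicate 1 and 859 counts (240 CPM) in replicate 2, a mean of 333 ± 131 CPM. Replicate 1 was the higher one. Gm24572, a second hairpin gene 233 bases away in the same host, had 65 and 17 counts, 11.5 ± 9.47 CPM. That was far below Mir1306 in both libraries.

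Mir3071 lies in the coding sequence of Rtl1 (chromosome 12, 109595318 to 109595397, minus strand), a retrotransposon-derived gene of the imprinted Dlk1-Dio3 domain. It had 684 counts (191 CPM) in replicate 1 and 499 (140 CPM) in replicate 2, a mean of 165 ± 36.4 CPM. On the plus strand the locus overlaps Mir136, for which no row was analysed here. The tables carry an older version of the Mir3071 identifier than the annotation used for coordinates, so the strand counted under it is not known for certain, and the value may be that of either hairpin. Its antisense count was 0 in both libraries. Mir1247, in an exon of the non-coding Dio3os of the same imprinted domain (chromosome 12, 110278048 to 110278129, minus strand), had 514 counts (144 CPM) in replicate 1 and 55 (15.4 CPM) in replicate 2. With a mean of 79.4 ± 90.6 CPM, its SD exceeded its mean.

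A group of 4 members filled an annotated intron, with both hairpin ends within 3 bases of the splice sites: Mir3102, Mir1981, Mir6944 and Mir6958. Only 1 other detected gene did so, and 19 of the 572 candidates. All 3 with a RefSeq hairpin (Mir1981, Mir6944 and Mir6958) began with GU and ended with AG, the letters of a spliced intron. Of the 55 other members with a hairpin, 0 did so. The 3 were picked by their match to annotated splice sites, so these letters follow largely from that choice and are no separate support. Mir1981, in an intron of the mitochondrial reductase gene Marc2 (chromosome 1, 184822407 to 184822488, minus strand), had 380 counts (106 CPM) in replicate 1 and 357 (99.8 CPM) in replicate 2. The libraries nearly met, at a mean of 103 ± 4.44 CPM. Mir3102 in Arhgef17 (chromosome 7, 100882306 to 100882409, minus strand) had 743 counts (207 CPM) and 399 (112 CPM), and an exon of a retained-intron transcript also covers it. Mir6944 in Dbn1, which encodes the actin-binding drebrin (chromosome 13, 55477681 to 55477776, minus strand), had 407 counts (114 CPM) and 238 (66.5 CPM). Both were higher in replicate 1. Mir6958 in Dennd6b (chromosome 15, 89185465 to 89185537, minus strand) was far lower, with 13 and 15 counts (3.91 ± 0.399 CPM).

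Among the other intronic members, Mir3099 in the paternally expressed gene Usp29 (chromosome 7, 6803587 to 6803670, plus strand) had 168 counts (46.9 CPM) in replicate 1 and 187 (52.3 CPM) in replicate 2. It was among the steadiest of the abundant members, at 49.6 ± 3.80 CPM. Mir6538 in the ubiquitin ligase gene Rnf144a (chromosome 12, 26414901 to 26415010, minus strand) had 245 counts (68.4 CPM) and 45 (12.6 CPM). Mir6540 in Gap43, a growth-associated protein of axons, had 191 and 89 counts (39.1 ± 20.1 CPM). Mir1955 in the histone reader gene Phf21a had 159 and 109 counts (37.4 ± 9.84 CPM). The first of these 4 was slightly higher in replicate 2 and the other 3 were higher in replicate 1.

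Some hosts have well-known roles in the miRNA pathway or in signalling between cells. They were picked after the values were seen and stand for no test of a theme. Host RNA was not measured in these libraries. Besides Dgcr8, the pathway hosts were Tnrc6b, an Argonaute partner in silencing, with Mir5113 at 15.4 ± 2.36 CPM, and Ddx5, a helicase that assists Drosha, with Mir3064 at 10.6 ± 0.779 CPM. Cnot3, a subunit of the deadenylase that shortens targeted mRNAs, held Mir3572 at 3.35 ± 0.794 CPM. All 3 were below Mir1306 in both libraries. Smoc1, a secreted regulator of BMP signalling needed for limb development, held Mir3067 at 26.5 and 17.6 CPM. Boc, a Hedgehog co-receptor, held Mir3081 at 6.42 and 7.83 CPM, and Fgf20, a growth factor gene, held Mir7666 at 3.35 and 4.47 CPM. Lpar1, a lysophosphatidic acid receptor, held Mir3095 at 11.4 and 8.11 CPM. Mir3067 was above the member median of 11.6 CPM and the other 3 were below it.

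Other hosts carried members between 3.77 and 24.03 CPM. Ppp2ca, the catalytic subunit of phosphatase PP2A, held Mir3061 at 24.03 ± 1.56 CPM, and Tcf20, a transcriptional coregulator, held Mir3080 at 21.9 ± 6.54 CPM. Mir3080 was higher in replicate 2 (95 against 62 counts), unlike most members. Pfas of purine synthesis held Mir3062 (10.3 ± 1.59 CPM), the transketolase gene Tkt held Mir3076 (5.73 ± 2.17 CPM) and the translation factor gene Eif4g3 held Mir6399 (5.73 ± 2.17 CPM). Exons covered only 39 of the 105 bases of Mir3062 and 1 of the 60 bases of Mir3076. Ndufa10 of respiratory complex I held Mir6900 at 5.87 ± 0.389 CPM, and the aminoacyl-tRNA synthetase gene Farsa held Mir7069 at 3.77 ± 0.194 CPM. Ttc39c held Mir1948 at 8.52 ± 1.77 CPM. Mir3061 and Mir3080 stood above the other 6 in both libraries.

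A further set of members stood at 24.9 CPM or below, some above and some below the member median of 11.6 CPM. Mir3066, in an intron of the nucleolar protein gene Nol10, had 94 and 84 counts (24.9 ± 1.95 CPM). Mir7655 in Mllt10, a cofactor of histone methylation, had 78 and 54 counts, and Mir3058 in Nudt4 had 79 and 40. Mir1198 in Gripap1 was higher in replicate 2 (54 against 46 counts), whereas Mir1968 in Grtp1, Mir6546 in Fcgr3 and Mir3057 in Apba3 were higher in replicate 1. The mature sequence of Mir6546 also matches Gm27552 and Gm27844, so its 11.6 CPM are uncertain. Under 10 CPM lay the intronic Mir3086, Mir3075, Mir7083, Mir3097, Mir7224, Mir7663 and Mir3060, the exonic Mir7658 in Plekhn1, and Mir1945, Mir5626 and Mir1969 without a host. Among these, Mir7083 in Dock6 had 42 and 14 counts, a wide gap, while Mir3075 in the transcriptional coregulator gene Zmiz1 had 30 and 29. Mir3060 in Rnf215 had 12 counts in each library, close to the minimum. Mir6539 in Dock5, Mir1930 in Gm49325 (and also within Ube2g2) and Mir1249 in 5031439G07Rik stood at 13.3, 18.6 and 11.6 CPM.

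Members without a host sometimes faced a gene on the other strand. Mir5126 lies opposite Dner, Mir7689 opposite Sorcs2, Mir8112 opposite Smyd1 and Mir8114 opposite Teddm2. Mir7689 had 120 and 87 counts (28.9 ± 6.49 CPM), Mir8112 73 and 82 (21.7 ± 1.80 CPM) and Mir8114 61 and 51 (15.6 ± 1.96 CPM). Mir7688, with no gene spanning it on either strand, had 169 and 81 counts (34.9 ± 17.4 CPM). Opposite-strand reads were rare at the members. All 64 together had 14 antisense counts in replicate 1 and 8 in replicate 2. That was 0.0378% and 0.0384% of their reads, against 0.0164% and 0.00788% for the other detected genes. Those other genes include Mir3074-1, set aside by the rule. It held 467 of their 581 antisense counts in replicate 1 and 178 of their 280 in replicate 2, so without it their share would be lower still. At 56 members no antisense read was counted in either library, and the same share of the other detected genes was not worked out. Mir5618 in Tmem123 had 3 in each library beside 37 and 27 sense counts.

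At the count minimum the rule separated genes of nearly equal level. Just inside were Mir1298 (12 and 10 counts), in an intron of the serotonin receptor gene Htr2c, Mir3572 (10 and 14) and Mir1934 (20 and 11). Just outside were Mir6945 in Pdlim7 (16 and 9 counts), Mir3063 in Igf2bp1 (12 and 9) and Mir5100 in Mief2 (10 and 9). The last 3 are among 18 candidates that reached the minimum in 1 library alone. Of the 508 candidates that did not pass, 272 had 0 counts in both libraries and 236 had some. Together these 508 held 779 and 610 counts, 194 ± 33.2 CPM, less than Mir6236 alone.

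Neighbouring hairpins on the annotated strand of a member mostly had few or no counts. In the same host as a member, or within 10 kb on its strand, lay 11 other genes, near 6 of the members. Only Gm24572 beside Mir1306 was detected, 1 of 11, against 17.6% of all gene rows. Neighbours of Mir3071 were sought on the minus strand alone, although the strand counted under it is not certain. Mir1298 shares Htr2c with Mir448, Mir764, Mir1912, Mir1264, Gm24627 and Gm22650, which had 0 counts in both libraries except for 1 count of Mir448 in replicate 1.

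The detected share varied with the symbol number, as the plot of detected shares shows. It was 17 of 79 (21.5%) for numbers from 1000 to 2999 and 20 of 72 (27.8%) from 3000 to 3999. It was 5 of 48 (10.4%) in the 5000s, 10 of 191 (5.24%) in the 6000s, 10 of 150 (6.67%) in the 7000s and 2 of 32 (6.25%) in the 8000s. The shares up to 3999 were above the 17.6% of all gene rows and those from 5000 upward were below it. No test was made of this order. Median levels of detected members did not follow that order: 11.6, 10.5, 15.4, 26.2, 6.77 and 18.7 CPM across these ranges.

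**Figure D2:**
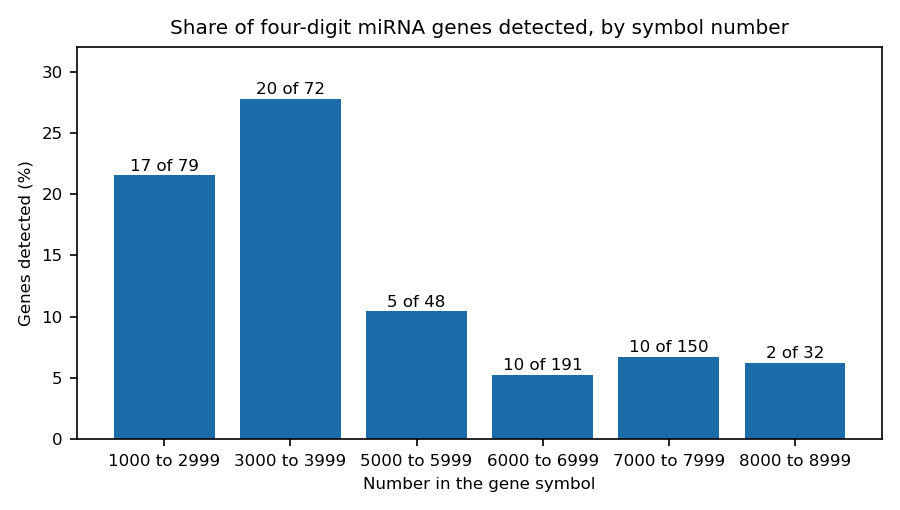
Share of four-digit miRNA genes with at least 10 sense counts in both limb libraries (vertical axis, percent of genes), by the number in the gene symbol; labels give detected genes of candidates. The bars for numbers up to 3999 stand at 21.5% and 27.8%, and those from 6000 upward between 5.24% and 6.67%.

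Hairpin GC of the members had a median of 55.0%, from 37.8% in Mir5099 to 83.1% in Mir5126. The other detected genes had a median of 49.4% and the four-digit genes under the minimum 54.3%, close to that of the members. Of the members, 20 (31.3%) had a GC of at least 60%, against 44 (15.5%) of the other detected genes. By place, the medians were 53.8% in introns, 56.7% in exons and 54.9% without a host. Mir7654 in Arglu1 (80.0%) and Mir8112 (78.6%) followed Mir5126, and Mir6399 (39.3%) and Mir1948 (40.0%) lay next to Mir5099 at the low end.

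Level showed no clear relation to GC across members. Spearman's rho between hairpin GC and mean log2 CPM was 0.0255 over 64 members and 0.0596 over the 284 other detected genes, all from the same 2 libraries. With a minimum of 50 counts in both libraries, which leaves 23 members, it was −0.38. Detection was 14 of 163 (8.59%) below 50% GC, 30 of 257 (11.7%) from 50% to 60% and 20 of 152 (13.2%) at 60% or more, where the medians of members were 10.5, 12.4 and 13.6 CPM. In the plot of GC against level, Mir5099 shows that a GC-poor hairpin reached 280 CPM, and Mir5126 that the GC-richest one reached 30.2 CPM on average.

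**Figure D3:**
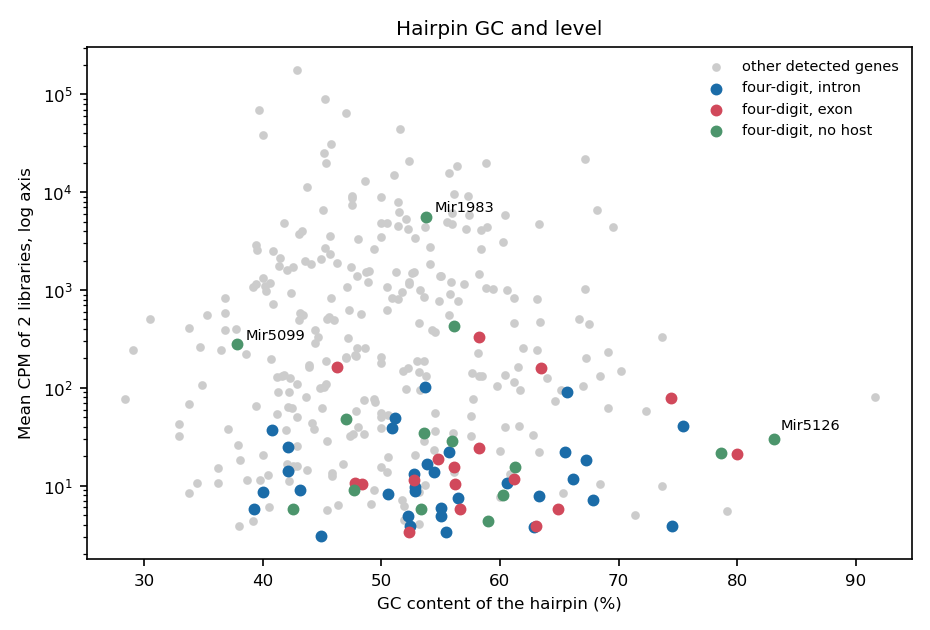
Hairpin GC (horizontal axis, percent) against mean CPM of the 2 libraries (log axis) for detected genes; coloured points are the 64 four-digit genes by place and grey points the other 284 detected genes. The coloured points spread across the GC range without a slope (rho 0.0255), and sit low in the range of grey points apart from Mir1983.

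The libraries differed more at the abundant members than at most genes. Among members of at least 100 counts on average (17 genes), the median log2 ratio of replicate 2 to replicate 1 was −0.84, against −0.27 over all 250 genes of that depth. With edgeR's TMM factors all ratios shift upward, to −0.56 for the members and 0.01 for all genes, a shift of all genes that keeps the gap between them. Of the 17, 16 were lower in replicate 2 (15 with TMM factors) and 6 (35.3%) were over 2-fold lower, against 9.6% of all 250 genes. With TMM factors 4 of the 17 passed 2-fold, against 14 of the 250 genes. The count over 2-fold higher was 0, against 1.2%. The 6 were Mir5126, Mir1247, Mir6538, Mir6236, Mir6540 and Mir7688. Only 2 libraries of 1 group were compared, for which the smallest two-sided exact sign-flip p is 0.5, so no test was made.

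The differences of Mir5126, Mir1247 and Mir6538 were far outside counting error. Mir5126 had 198 counts (55.3 CPM) in replicate 1 and 18 (5.03 CPM) in replicate 2, a log2 ratio of −3.39 (−4.24 to −2.76). For Mir1247 the ratio was −3.20 (−3.65 to −2.82), and for Mir6538 it was −2.42 (−2.94 to −1.98). Their hairpins have 83.1%, 74.4% and 75.5% GC, and the printed sequences show the runs of G and C. Mir6236, with 78.9% GC in its mature sequence but 56.1% in its hairpin, stood at −1.39 (−1.51 to −1.28). Mir6540 and Mir7688, also over 2-fold lower, stood at −1.09 and −1.05, with 50.9% and 53.6% GC in their hairpins. Their mature sequences have 47.6% GC in Mir6540, and 52.2% and 47.6% in Mir7688. At the other end were Mir3099 at 0.16 (−0.15 to 0.47) and Mir1981 at −0.09 (−0.30 to 0.12), whose intervals include 0, and Mir3071 at −0.45.

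Across the 17 members, hairpin GC and the ratio had a Spearman rho of −0.57, and −0.23 without Mir5126, Mir1247 and Mir6538. Over all 64 members rho was −0.15, and over the 233 other genes of at least 100 counts it was 0.0791. Of the 6 members with at least 70% GC, the other 3 were not lower to that extent, as the plot of ratio against GC shows: Mir7654 (88 and 62 counts), Mir8112 (73 and 82) and Mir7666 (12 and 16). Outside the members, 7 detected genes had at least 70% GC. Among them Gm26117, at 91.6% GC, had 524 and 59 counts, a log2 ratio of −3.13. Gm23935 (73.7% GC), Mir3072 (72.3%) and Mir770 (70.2%) stood at −0.88, −0.74 and −1.18. These were the ones of at least 100 counts on average. The rest of the 7 had fewer counts, and their ratios are not given here. Among the members of fewer counts, Mir2137 in an intron of Zfp185 (chromosome X, 72992079 to 72992144, plus strand) had 63 and 14 counts. Its hairpin has 60.6% GC. The share of unmapped reads also differed between the libraries (32.3% and 18.6%), and its part in these differences was not tested. Over all 64 members, 52 (81.3%) were lower in replicate 2, against 68.1% of all 348 detected genes. Of them 10 (15.6%) were over 2-fold lower, against 11.5%, which is close to the background, and 0 were over 2-fold higher, against 1.72%.

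**Figure D4:**
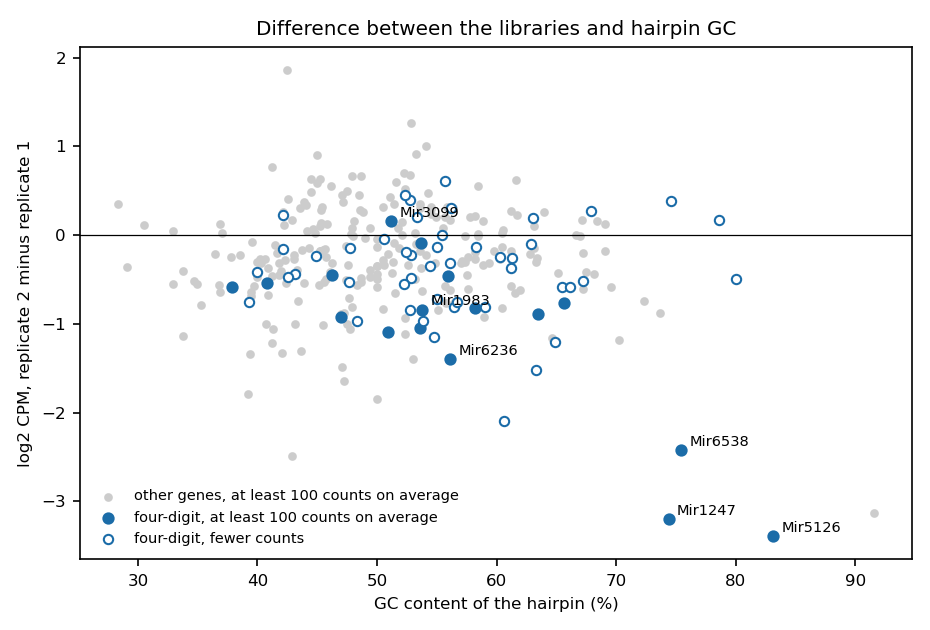
Log2 ratio of CPM in replicate 2 to replicate 1 (vertical axis) against hairpin GC (horizontal axis, percent); filled blue points are the 17 four-digit members of at least 100 counts on average, open blue points the other members and grey points the other genes of that depth. Mir1247, Mir5126 and Mir6538 lie below −2.42 or at it, and the median of the 17 filled points is −0.84.

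Some members carry a seed that another detected miRNA gene also carries. Of the 60 members with a mature sequence, 14 shared a seed with another gene in the RefSeq table, 7 of them with a detected gene outside the four-digit set. The same share among other miRNA genes was not counted, so whether 14 is many or few is not known. The seed UCACCUG of miR-1983 is also that of miR-412-3p, whose gene Mir412 stood at 132 ± 40.4 CPM, below Mir1983. The seed CUGCCCU of miR-7069-3p is that of miR-18a-3p, whose gene Mir18 stood at 11350 ± 924 CPM against 3.77 CPM for Mir7069. The seed CACUGAG of miR-1947-3p is that of miR-674-5p (Mir674, 1162 ± 177 CPM against 7.40 CPM for Mir1947), and AAUCAUG of miR-3475-5p is that of miR-96-3p (Mir96, 827 ± 85.7 CPM against 8.94 CPM for Mir3475). The seed CAAAGCA of miR-6240 is that of miR-330-3p (Mir330, 229 ± 21.3 CPM against 48.3 CPM). Mir3102 was above its seed partner Mir702 (160 against 94.99 CPM), and Mir6958, whose 5p arm shares UGGGAGA with the 3p arms of Mir30c-1 and Mir30c-2, was below both (3.91 against 71.1 and 25.4 CPM). Counts per hairpin do not separate the arms, so the level of the arm that carries the seed is not known.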

How the data were processed

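Limb miRNA was measured by small-RNA sequencing in 2 libraries of 1 group. The authors deposited raw counts for every gene, split by strand, 1 table and 1 alignment per library (mm10, GENCODE M4), per the deposited readme texts. Which aligner and counter made them is not given in the sources used here. Unmapped, multimapping (21.9% and 25.4% of reads) and no-feature reads (10.3% and 6.46%) stayed out of the totals, so genes with copies may read low.

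Symbols, hosts and coordinates came from GENCODE M21 (GRCm38), which matched 1894 of 1973 identifiers. A host spans the hairpin on the same strand, and where several do, the main host is protein-coding first, then the longest. A hairpin is exonic where any host exon overlaps it. Log2 values carry a prior count of 1. The named members are the most abundant overall and by place, the extremes of GC and of library ratio, those next to the minimum, and those filling introns or overlapping another miRNA gene. Members named beyond that rule, and the host grouping, were chosen after their values were seen. The members and lists were chosen with earlier results of these data known.

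With 1 group no test between conditions was possible. Alternatives were TMM and DESeq2 factors, other count minimums, both strands, a prior of 5, other host definitions and each library alone. No genome sequence was used, so members of several loci were sought in the RefSeq miRNA table and GENCODE transcripts (Mir6546 was left out there). Computations used Python 3.11.15, pandas 2.3.3, scipy 1.17.1, R 4.3.3, edgeR 4.0.16 and DESeq2 1.42.0. Set folds were also recovered from simulated counts that carried counting error alone. That outcome followed from the setting and gives no support to the ratios reported.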

Additional observations from a re-analysis of the deposited data

Results flagged for a closer look

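Antisense counts lay outside the main measurement and were looked at because the members were chosen on the sense strand. Mir7654, in an exon of Arglu1, had 4 antisense counts in replicate 1, above the 3 counts that a count of 0 allows. They made up 4.35% (1.20 to 10.8) of its reads there, and replicate 2 had 0. No other member exceeded 3 antisense counts in either library.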

How the results depend on the processing

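The number of members was 64 at 10 counts, 95 at 5, 23 at 50, and 73 in each library taken alone. Their share of counts was 0.245% without Mir1983, an alternative chosen after seeing the data, and 0.584% to 1.04% in single libraries. The median level of 3.55 (log2 CPM) was 2.83 at a minimum of 5 counts, 5.21 at 50, and 3.07 to 3.55 in single libraries. Fewer or more genes enter at each minimum. Intronic members stayed below exonic ones under all alternatives run. The difference was −1.003 at a minimum of 5, −1.21 at 50, −0.77 where exons must cover the whole hairpin, and −0.52 to −0.34 in single libraries. No alternative left out retained-intron transcripts, through which alone Mir3102, Mir1930 and Mir1249 count as exonic. The near-zero rho of GC with level changed sign, to −0.38 at a minimum of 50 counts and −0.072 to −0.0029 in single libraries, and was 0.107 with the GC of mature sequences; the cause was not tested. Median GC was 55.9% at 50 counts and 55.0% to 55.1% in single libraries. The median log2 ratio between libraries was −0.56 with TMM factors, −0.56 with DESeq2 factors and −0.48 over all 64 members, where 10 were over 2-fold apart in place of 6. With TMM factors, DESeq2 factors or both strands, the levels of 21 named members moved by at most 1.08-fold. In single libraries they take the values of each library, which for Mir1247 are 144 and 15.4 CPM and for Mir5126 55.3 and 5.03 CPM. No paired analysis was possible because there is 1 group. Depth limits members near 10 counts, whose order among themselves is not resolved.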

Other observations

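Longer hairpins among the members tended to have more reads: Spearman's rho of hairpin length (51 to 132 bases) with mean log2 CPM was 0.34 over the 64 members and −0.10 over the 284 other detected genes, all read from the same 2 libraries. Mir1983 (132 bases) and Mir6236 (123 bases) are both long and abundant, whereas Mir8112 (131 bases) had 21.7 CPM. Predicted folding energy showed no such relation. The median was −43.7 kcal/mol per 100 bases for members and −43.4 for the other detected genes, and rho with level was 0.0373 and 0.0121. These values are descriptions across genes, which are not independent replicates.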
